A study of Mus musculus with 12 samples.

Results

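The genes described here are 9 mouse genes whose 3' UTRs hold repeated AGO2 target peaks over a Pumilio-type element: Lnpep, Adam22, H1f0, Pnrc1, Serinc1, Slc38a1, Slc38a2, Sqle and Tmod2. They were chosen by name, from peaks on the gene's own strand in the GENCODE M21 annotation (mm10), for 3' UTR peaks that hold the letters TGTANATA, for the recurrence of those peaks between lists and for their position. Those values are therefore given as descriptions, and nothing is supported with them. The 9 genes stand among 2627 genes with a peak in any list, and among 573 genes with a 3' UTR peak holding the element.

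The study measured RNA bound to the Argonaute protein AGO2 in mouse cerebella. All animals were homozygous conditional Spy3-Ago2 mice, labelled WT for genotype, with no strain named. They received at P0 an adeno-associated virus carrying Cre under L7, a promoter of Purkinje cells, and cerebella were taken at postnatal day 7 (P7) or 15 (P15). The tagged AGO2 was caught on a SpyCatcher3 resin from the whole cerebellum, so the restriction to Purkinje cells rests on the Cre promoter, and the animals behind each library and whether they were pooled are not named. There were 12 libraries in 6 groups of 2, a miRNA, a target and an input group at each age. The target libraries were analysed as 3 lists of peaks. The P7 list has 4884 peaks (median width 48 nt) and the P15 list 5173 (51 nt). A further list of 1624 peaks (33 nt), which came with the second P15 target library, is named the replicate 2 list below. How the replicate 2 list differs in making from the P15 list is not given in the sources used here. The labels of both P7 target libraries name the P7 list, but of the P15 target libraries only the first names the P15 list. Whether the P15 list rests on that library alone is not stated. It was taken to pool the P15 target libraries, so it may share a library with the replicate 2 list. Overlap between these lists, and presence in all 3 lists, may therefore be partly built in. The lists carry no heights (every score is 0) and no values per library, so a peak is present or absent and there is no replicate error on any single peak. A difference between the lists can come from age, from depth or from peak calling, and these cannot be told apart. Markers fixed for the labelled cell type were found, with peaks in 7, 5 and 4 of 8 Purkinje cell genes in the P7, P15 and replicate 2 lists. Marker genes of other cells also had peaks. These were 5, 6 and 3 of 6 granule cell genes, 5, 4 and 2 of 5 genes of Bergmann glia and astrocytes, and 3, 3 and 2 of 4 oligodendrocyte genes. None of 2 microglial and 2 endothelial genes had a peak. Of 3 genes listed for interneurons 1, 2 and 0 had a peak. They include Gad1, at P7 and P15, which Purkinje cells also express, so that list does not set interneurons apart from the labelled cells. From which cells the peaks of the 9 genes came was not tested.

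Pumilio proteins bind a short UGUA-containing element in the 3' UTRs of mRNAs through repeated helical units that each read a base, and they recruit deadenylases and other repressors to the RNA. AGO2 is guided to mRNAs by miRNAs, whose seed (bases 2 to 8) pairs with the target, and it also represses translation and destabilises the RNA. Pumilio proteins are known in neurons for the control of mRNA translation in dendrites. In these data only AGO2 was pulled down, so the element is a match of letters and no Pumilio protein was measured.

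The following sequences show what the peaks of the 9 genes have in common. Each is 30 nt of 3' UTR on the gene's strand, 5' to 3', from GENCODE M21 transcripts with mm10 coordinates, and the capitals mark the element TGTANATA. The first group holds 5 of the 6 elements that lay under a peak in all 3 lists, the first element of the Slc38a2 cluster being left out.
H1f0, chr15:79030286-79030315 (+): atgtgtgtataTGTATATAtccatatctaa
Pnrc1, chr4:33245896-33245925 (-): attttatatttTGTAAATActgtataccat
Serinc1, chr10:57516710-57516739 (-): ttttaaaattaTGTAAATAagtcacaggct
Slc38a2, a pair of elements, chr15:96687845-96687874 (-): ccatatgtattTGTAAATAgatTGTATATA
The next group lay under a peak at P7 and at P15 but under none in the replicate 2 list, and shows the paired elements of Slc38a1 beside those of Slc38a2.
Slc38a1, chr15:96572319-96572348 (-): cttcctttgtaTGTAAATAtgtTGTAAATA
Sqle, first element, chr15:59330951-59330980 (+): cttgaagaggaTGTATATAgcatagaactg
Sqle, second element, chr15:59331015-59331044 (+): gtgtataagcaTGTAAATAtaagccttact
Tmod2, chr9:75567345-75567374 (-): ataaggtgcctTGTACATAgtagatgctta
Adam22, chr5:8077899-8077928 (-): gtggacgagatTGTAAATAgagtggtcagt
H1f0, chr15:79029336-79029365 (+): ctcctgttttcTGTAAATAcatttcctcac
Serinc1, chr10:57516886-57516915 (-): catctgctttgTGTACATAtggtattaaaa
Lnpep is shown by an element under a P15 peak and by a G-containing element under no peak.
Lnpep, under a P15 peak, chr17:17528351-17528380 (-): aacagtgtctgTGTACATAaaaagggaatc
Lnpep, under no peak, chr17:17527670-17527699 (-): gtgtgctgtgtTGTAGATAaagccttatga
Outside the capitals the windows differ from gene to gene, and only the capitals bore on the choice of the genes.

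Across the lists the 9 genes carried 73 peaks, of which 59 lay in the 3' UTR, 12 in coding exons and 2 in the 5' UTR. In the P7 list 14 of their 17 3' UTR peaks held the element (82.4%), beside 16.8% of the 988 sequenced 3' UTR peaks of all genes. In the P15 list 24 of 35 did (68.6%), beside 25.3% of 2559. In the replicate 2 list 4 of 7 did (57.1%), beside 23.3% of 404. The genes were chosen for these peaks, so nothing is read from the gap to the shares over all genes. The P7 peaks with the element came from 8 of the 9 genes, all but Lnpep, the P15 peaks from all 9, and the replicate 2 list peaks from 4, H1f0, Pnrc1, Serinc1 and Slc38a2. None of the 12 peaks in coding exons held the element, 1 of them (Serinc1, P7 list) having no sequence here. Over all genes the element was also rare there, in 0.292% of P7 peaks in coding exons (7 of 2395), 1.21% of P15 peaks (17 of 1400) and 0 of 164 in the replicate 2 list, which allows a share of up to 2.22% by an exact binomial interval.

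**Figure D1:**
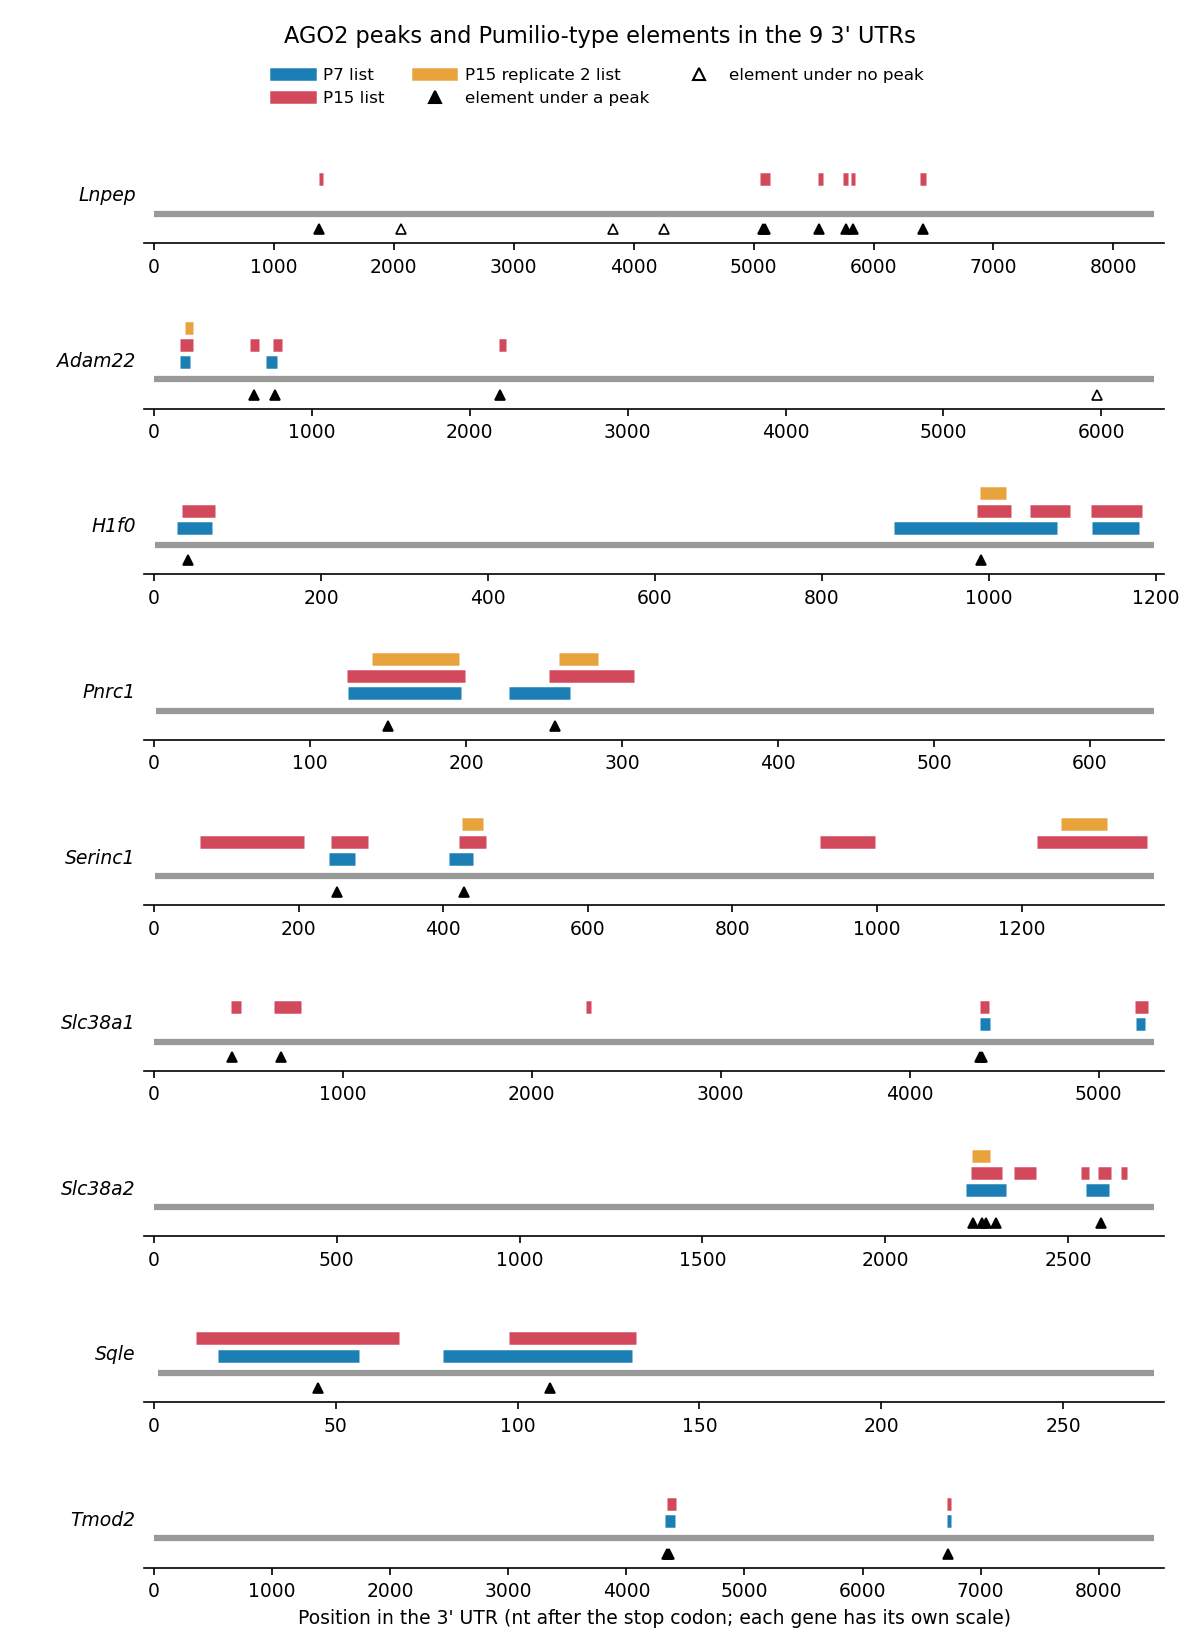
Peaks and elements along the 3' UTR of each of the 9 genes; the axis gives nt after the stop codon on a scale of its own for each gene, bars are peaks of the P7 (blue), P15 (red) and replicate 2 (yellow) lists, filled triangles are elements under a peak and open triangles elements under none. Of 34 elements 30 lie under a peak, and the 4 open triangles are in Lnpep and Adam22.

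Whether the element belongs to the peaks or to the 3' UTRs around them was asked over all genes, with windows of the same length just upstream and downstream of each peak in the transcript. At P7 the element was in 144 of 907 peaks with both flanks (15.9%, 95% exact binomial interval 13.6 to 18.4), in 1.98% of upstream windows and in 1.54% of downstream windows. At P15 it was in 533 of 2143 peaks (24.9%, 23.1 to 26.8), against 1.49% and 1.87%. In the replicate 2 list it was in 74 of 338 peaks (21.9%, 17.6 to 26.7), against 0.888% and 1.78%. The exact McNemar test, two-sided, taking the larger of both flanks' p-values, gave adjusted p-values of 3.84e-27, 3.31e-116 and 7.16e-18. These peaks include those of the 9 genes, which were chosen for holding the element. The test compares positions within a list, peaks are not replicates of an age, and the intervals cover counting error only.

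Without the 9 genes the peak shares were 14.7%, 24.1% and 21.1%, with adjusted p-values of 4.83e-24, 4.45e-111 and 5.06e-17 by the same exact test, so the difference from the flanks was not limited to them. The element was part of the choice of the genes, made with earlier results of these data known. Leaving the genes out does not undo that, so the test is not independent support for the element. The reverse complement of the element and its letters in reversed order were less frequent in the peaks than the element. The reverse complement TATNTACA was in 1.76%, 4.11% and 2.96% of the P7, P15 and replicate 2 list peaks, and the reversed order ATANATGT in 1.43%, 3.13% and 2.37%. Both of these forms were also more frequent in the peaks of each list than in either flank. At P15 TATNTACA was in 1.07% of upstream and 1.03% of downstream windows, and ATANATGT in 0.747% and 0.887%. In the flanks of any list both were at most 1.43%. The median share of A and T was 50%, 59.3% and 62.7% in all 3' UTR peaks of the lists, 63.5%, 65.8% and 68.9% in those with the element, and 63.8%, 69.8% and 74.4% in those of the 9 genes. Peaks with the element were thus richer in A and T in each list, but these shares include the element itself, which is mostly A and T. The part of base composition in the element's share was described with the reversed letters and not tested.

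**Figure D2:**
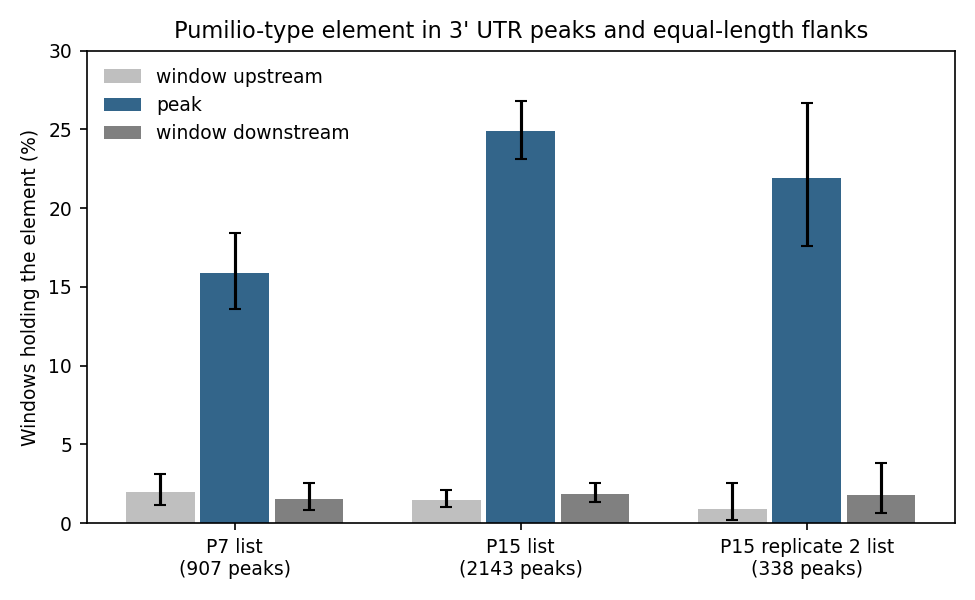
Share of windows holding TGTANATA (%) in 3' UTR peaks (blue) and in equal-length windows upstream (light grey) and downstream (dark grey), over all genes of each list; error bars are exact binomial 95% intervals. The peak bars stand at 15.9%, 24.9% and 21.9%, and all flank bars lie below 2%.

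Slc38a1 and Slc38a2 encode sodium-coupled transporters that carry glutamine and other neutral amino acids into cells. They are paralogs, and in mm10 they lie 44478 nt apart on chromosome 15, both on the minus strand. Slc38a2 (ENSMUSG00000022462, chr15:96687392-96699730) had 2 3' UTR peaks at P7, 5 at P15 and 1 in the replicate 2 list. The cluster of 4 elements between 2239 and 2303 nt after the stop codon lay inside a 109-nt P7 peak (chr15:96687797-96687905) and an 86-nt P15 peak (chr15:96687808-96687893). The 49-nt peak of the replicate 2 list (chr15:96687842-96687890) held the first 3 of them. The last element, 2591 nt after the stop codon was under a 64-nt P7 peak and a 36-nt P15 peak. All 5 elements of the 2735-nt 3' UTR therefore carried peaks at both ages, and no peak of any list began before 2222 nt.

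The Slc38a2 cluster also holds a match to the sequencing adapter. The hexamer TGGAAT, with which the constant part of the 3' RNA adapter begins per the labels, was inside the P7 and P15 peaks over the cluster, and in the replicate 2 list it starts just after the peak's 3' end. Among the element peaks of the 9 genes TGGAAT was inside 1 of 14 at P7, 2 of 24 at P15 and 0 of 4 in the replicate 2 list; the other P15 case was in Lnpep. Over all 3' UTR peaks it was inside 2.94%, 1.99% and 0.743%, and it began within 5 nt after the end in 3.54%, 2.07% and 9.65%. Its part in these peaks was not tested.

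Slc38a1 (ENSMUSG00000023169, chr15:96571418-96642913) had 2 3' UTR peaks at P7, 5 at P15 and none in the replicate 2 list, over a 3' UTR of 5293 nt. Its pair of elements at 4374 and 4385 nt was inside 52-nt peaks at P7 (chr15:96572288-96572339) and P15 (chr15:96572290-96572341), whose edges differed by 2 nt. Its other 2 elements, at 412 and 674 nt, were each under a P15 peak only. In both genes a pair of elements starts 11 nt apart, as the sequences above show. Over all 505 neighbouring pairs in the 1568 genes with a 3' UTR peak, this distance occurred in 6 genes, the others being Fbxw11, Klf15, Unc5b and Usp32. The paired elements of Slc38a1 are at 82.6% of its 3' UTR and those of Slc38a2 at 82.8%.

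Serinc1 and Sqle act in lipid synthesis. Serinc1 encodes a membrane protein linked to the incorporation of serine into phosphatidylserine and sphingolipids. Serinc1 (ENSMUSG00000019877, chr10:57515774-57532530) had 2, 5 and 2 3' UTR peaks in the P7, P15 and replicate 2 lists. Its second element, 429 nt after the stop codon, was under peaks of 33, 38 and 30 nt (chr10:57516716-57516748, chr10:57516698-57516735 and chr10:57516702-57516731). The first element, at 253 nt, was under peaks at P7 (36 nt) and P15 (52 nt). Both elements thus lay under peaks of similar place at both ages. Of the 1383 nt of 3' UTR, 34.6% was under a peak of any list, which includes P15 peaks of up to 153 nt without the element.

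Sqle encodes squalene epoxidase, which catalyses an early oxygen-requiring step of sterol synthesis. Sqle (ENSMUSG00000022351, chr15:59315077-59331192) has a 3' UTR of 275 nt, the shortest of the 9. Both of its elements, 45 and 109 nt after the stop codon, were under peaks at P7 (39 and 52 nt) and at P15 (56 and 35 nt) and under none in the replicate 2 list. Every 3' UTR peak of Sqle held an element. The list of 18 other genes of sterol synthesis and its control was fixed with Sqle in mind. It had peaks in 2, 4 and 1 genes of the P7, P15 and replicate 2 lists. None of its 4 genes with a peak in any list had a 3' UTR peak with the element. Over all genes 21.8% of those with a peak did, so nothing is read from a count this small.

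Adam22 and Tmod2 are neuronal genes. Adam22 encodes a catalytically inactive ADAM protein that serves as a receptor for the secreted protein LGI1 at synapses. Adam22 (ENSMUSG00000040537, chr5:8072352-8368160) had 4 elements in 6334 nt of 3' UTR and 2, 4 and 1 3' UTR peaks in the P7, P15 and replicate 2 lists. The element at 769 nt was under a 70-nt P7 peak (chr5:8077907-8077976) and a 56-nt P15 peak (chr5:8077878-8077933). Elements at 634 and 2190 nt were under P15 peaks only, and the last, at 5974 nt, was under none. The Adam22 peak present in all 3 lists, around chr5:8078440-8078518, held no element. It was 81.2% A and T at P7, and in the P15 and replicate 2 lists it held TGGAAT.

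Tmod2 encodes the neuronal tropomodulin, which caps the slow-growing ends of actin filaments. Tmod2 (ENSMUSG00000032186, chr9:75565621-75611325) has the longest 3' UTR of the 9, 8468 nt, of which 1.58% lay under peaks. All 3 of its elements were under peaks at both ages. The peaks over the element at 6726 nt were 38 nt at P7 (chr9:75567339-75567376) and 37 nt at P15 (chr9:75567339-75567375). The elements at 4346 and 4361 nt, whose starts are 15 nt apart, shared an 86-nt peak at P7 (chr9:75569676-75569761) and a 78-nt peak at P15 (chr9:75569666-75569743). Tmod2 had no peak in the replicate 2 list.

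Lnpep encodes the insulin-regulated aminopeptidase, a membrane enzyme that cleaves oxytocin and vasopressin and travels with the glucose transporter of fat and muscle. Lnpep (ENSMUSG00000023845, chr17:17521410-17625050) differed from the other 8 in that none of its peaks overlapped a peak of another list. Its P7 list entries were 2 peaks in coding exons and none in the 3' UTR. At P15 it had 2 further peaks in coding exons, at other positions, and 6 peaks in the 3' UTR, every one of which held the element. These 6 peaks were 34 to 84 nt wide, lay between 1373 and 6435 nt after the stop codon, and held 7 of the 10 elements of its 8339-nt 3' UTR. The 84-nt peak (chr17:17524613-17524696) held a pair of elements 16 nt apart. The repetition of Lnpep is therefore within the P15 list, whereas that of the others is also between lists.

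H1f0 and Pnrc1 encode nuclear proteins. H1f0 encodes the linker histone H1.0 of non-dividing, differentiated cells. H1f0 (ENSMUSG00000096210, chr15:79028450-79030504) has elements 41 and 991 nt after the stop codon in a 3' UTR of 1198 nt. The first was under a 42-nt P7 peak and a 39-nt P15 peak. The second was under a 195-nt P7 peak (chr15:79030193-79030387), the widest element peak of the 9 genes, a 41-nt P15 peak (chr15:79030292-79030332) and a 31-nt peak of the replicate 2 list (chr15:79030296-79030326). The P7 peak thus covered a region in which the P15 list has 2 separate peaks, of which 1 held the element.

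Pnrc1 encodes a proline-rich coactivator of nuclear receptors. Pnrc1 (ENSMUSG00000040128, chr4:33245423-33290163) has elements 150 and 257 nt after the stop codon in a 3' UTR of 641 nt, and 2 3' UTR peaks in each of the 3 lists. The first element was under peaks of 72, 76 and 56 nt in the P7, P15 and replicate 2 lists (chr4:33245868-33245939, chr4:33245865-33245940 and chr4:33245869-33245924). The second was whole inside a 39-nt P7 peak and a 54-nt P15 peak. The 25-nt peak of the replicate 2 list there (chr4:33245780-33245804) begins inside the element and was not counted as holding it. Pnrc1 was the only one of the 9 genes with the same number of 3' UTR peaks in every list.

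The elements were set against the whole 3' UTRs in which they lie. The 9 3' UTRs add up to 34666 nt, of which 2385 nt (6.88%) were under a peak of any list. They hold 34 elements, from 41 to 6726 nt after the stop codon, of which 30 (88.2%) were under a peak. Of these, 11 were under a peak in 1 list, 13 in 2 lists and 6 in 3 lists. In H1f0, Pnrc1, Serinc1, Slc38a1, Slc38a2, Sqle and Tmod2 every element was under a peak, in Lnpep 7 of 10 and in Adam22 3 of 4. Over all 1568 genes with a 3' UTR peak in any list, 718 of 1275 elements (56.3%) were under a peak against 5.61% of 3' UTR nucleotides. The 9 genes were chosen for such elements, so their higher share is given without a reading.

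**Figure D3:**
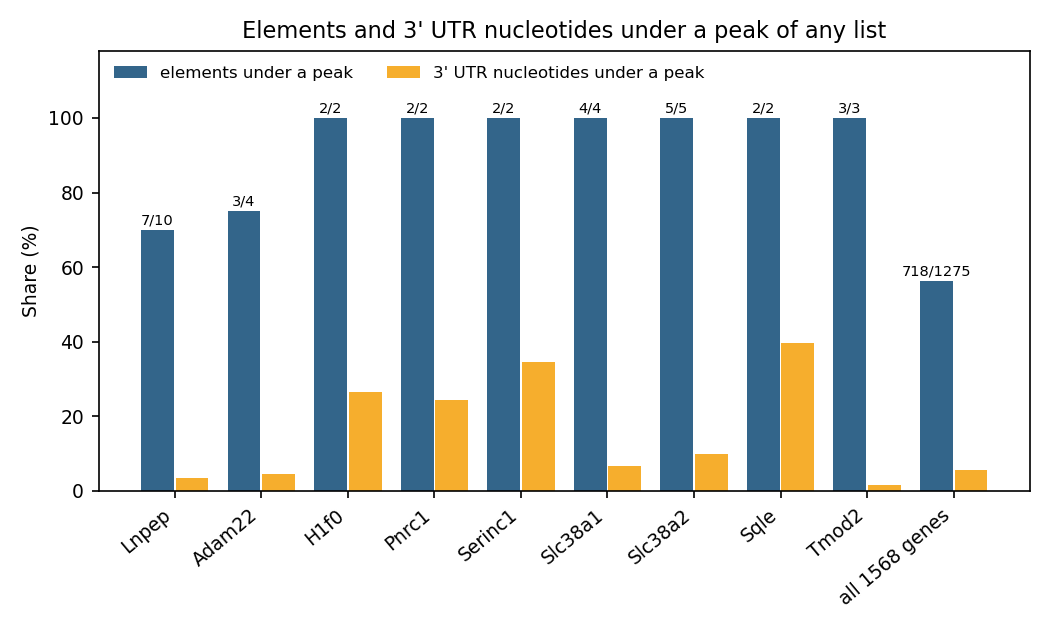
Share (%) of elements under a peak of any list (blue, with the counts above the bars) and of 3' UTR nucleotides under a peak (orange) for each of the 9 genes and for all 1568 genes with a 3' UTR peak. Element shares lie between 70.0% and 100% in the 9 genes and at 56.3% in all genes, and nucleotide shares between 1.58% and 39.6%.

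The base at the free position of the element, which the choice of genes did not use, was T in 13, A in 10, C in 6 and G in 1 of the 30 elements under a peak. Over all genes the 718 elements under a peak had A in 43.5%, T in 30.1%, C in 23.5% and G in 2.92%. The 557 elements of the same 3' UTRs under no peak had A in 34.1%, T in 30.9%, C in 24.1% and G in 11%. Elements with G were therefore a smaller share under peaks than elsewhere in these 3' UTRs, a difference described here and not tested. In peaks with both flanks the form with G, TGTAGATA, was in 0.331%, 0.840% and 0.888% of the P7, P15 and replicate 2 list peaks, while TGTAAATA was in 8.05%, 10.6% and 11.5%. Lnpep held both elements with G of the 9 genes, 1 under a P15 peak and 1 under none.

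Recurrence was read as an overlap of at least 1 nt on the same strand with any peak of another list. All 14 element peaks of the 9 genes at P7 overlapped a P15 peak, beside 46.9% of all P7 3' UTR peaks, and 5 of 14 overlapped the replicate 2 list, beside 16.5%. Of their 24 element peaks at P15, 14 overlapped a P7 peak, beside 18.7% of all P15 3' UTR peaks, and 5 overlapped the replicate 2 list, beside 12.3%. All 4 in the replicate 2 list overlapped both other lists, beside 39.4% for P7 and 77.0% for P15. Recurrence was part of the choice of the genes, and these counts are not a result about them.

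Among all genes, a higher share of 3' UTR peaks with the element than of those without it recurred. At P7 142 of 166 element peaks (85.5%, 79.3 to 90.5) overlapped a P15 peak, and 321 of 822 others (39.1%, 35.7 to 42.5) did. In the other direction the shares were 23.8% (20.5 to 27.2) of 648 element peaks and 17.0% (15.3 to 18.8) of 1911 others. Of 94 element peaks in the replicate 2 list 93 overlapped a P15 peak (98.9%), and 70.3% of the others did. These lists may share a library, so their overlap may be partly built in. No test was run, and the intervals cover counting error only, with each peak taken as independent. Without the 9 genes the shares of element peaks were 84.2%, 22.4% and 98.9%.

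Where in the peak the element lay differed between the lists, for the 9 genes and for all genes alike. In the 9 genes a median of 27 nt came before the element and 21 nt after it at P7 (19 elements), 13.5 and 30 nt at P15 (30 elements), and 6.5 and 20.5 nt in the replicate 2 list (6 elements). Over all genes the medians were 25 and 20 nt at P7, 15 and 29 nt at P15, and 5 and 23.5 nt in the replicate 2 list. Elements nearer to the 5' than to the 3' end of the peak were 10 of 19, 22 of 30 and 4 of 6 in the 9 genes, and 45.9%, 66.6% and 78.8% over all genes. At P15 and in the replicate 2 list the element thus lay mostly nearer the 5' edge, while at P7 it did so in about as many cases as not. Median widths of element peaks over all genes were 53.5, 54.5 and 39.0 nt.

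**Figure D4:**
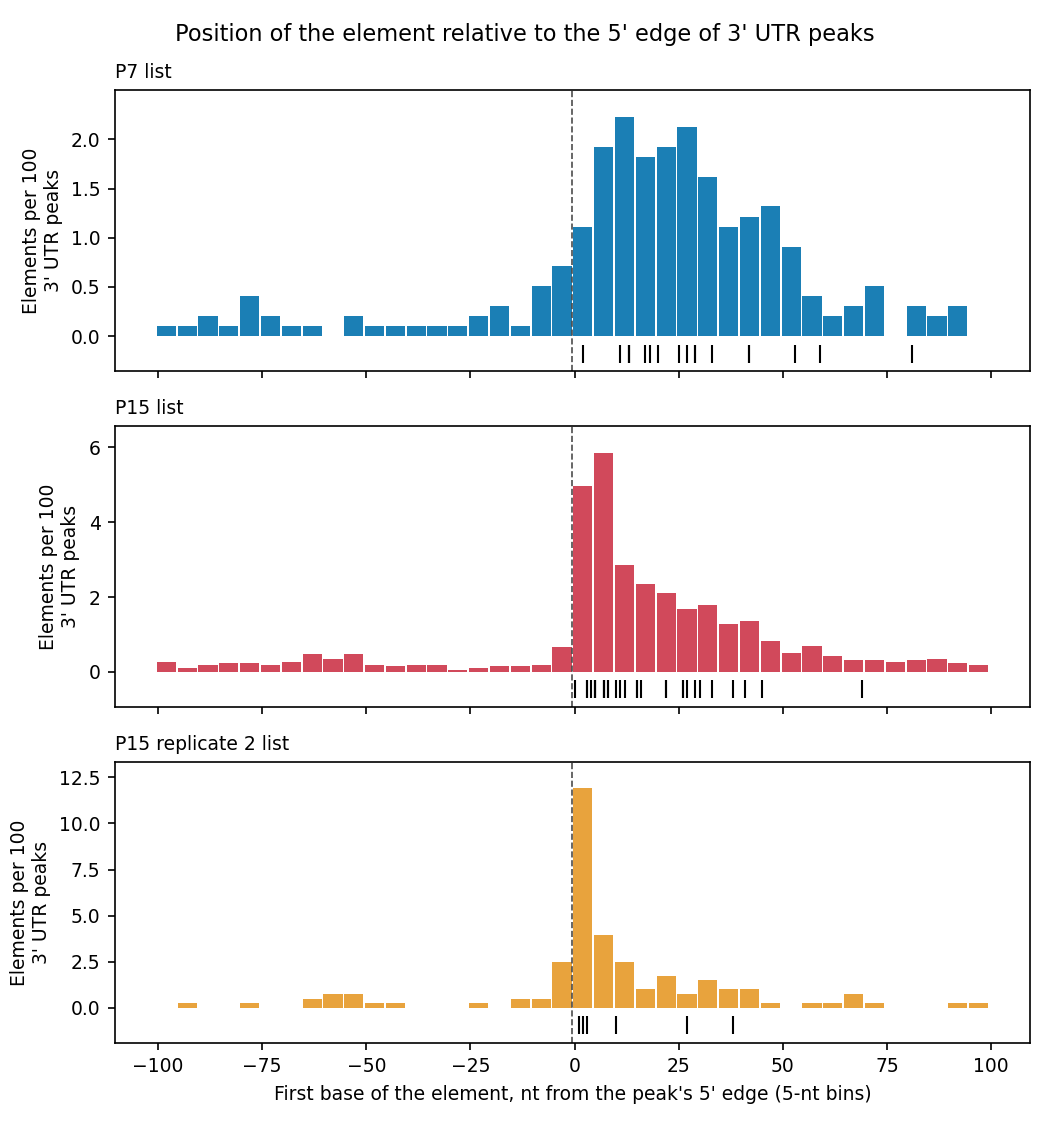
Elements per 100 3' UTR peaks in 5-nt bins by the distance (nt) of the element's first base from the peak's 5' edge (dashed line), over all genes of the P7, P15 and replicate 2 lists; the short vertical marks are the elements of the 9 genes. The P15 list reaches 4.96 and 5.86 per 100 peaks in the first 2 bins inside the edge, while the P7 list is spread over the first 50 nt.

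The same could be followed peak by peak, in the 14 pairs of P7 and P15 peaks of the 9 genes that share an element. The 5' edge at P15 lay downstream of that at P7 in 11 pairs and upstream in 3, with a median of 12.5 nt downstream and a range from 6 nt upstream to 99 nt downstream. The widest shifts were 99 nt in H1f0, 43 nt in Adam22, 32 nt in Slc38a2 and 26 nt in Pnrc1. Over all genes 141 pairs shared an element, and the 5' edge moved downstream in 82 and upstream in 52, with a median of 4 nt, or 2 nt over the 127 pairs of other genes. The 3' edge moved downstream in 10 of 14 pairs of the 9 genes (median 3.5 nt) and in 108 of 141 over all genes (median 8 nt). From P15 to the replicate 2 list the 5' edge of the 4 shared peaks of the 9 genes lay 3 to 16 nt further downstream. Both edges lay further downstream at P15 than at P7 in 8 of the 14 pairs. Age, library preparation, read trimming and peak calling cannot be told apart as sources of this shift.

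The 17 3' UTR peaks of the 9 genes without the element were 17 to 153 nt wide, and 12 of them overlapped a peak of another list. Only 4 held the shorter form TGTANA. Of these 12, 3 overlapped only peaks that hold an element: a 48-nt P15 peak of H1f0, a 23-nt P15 peak of Slc38a2 and the 25-nt peak of Pnrc1 in the replicate 2 list. Besides the peak of Adam22, positions with a peak free of the element at both ages were at chr15:79030429-79030489 in H1f0 (P15 coordinates), near the end of the 3' UTR, and at chr15:96571448-96571517 in Slc38a1. A 153-nt P15 peak of Serinc1 (chr10:57515784-57515936) was also in the replicate 2 list, with 63 nt there. At these positions of Adam22, H1f0, Slc38a1 and Serinc1, peaks without the element thus overlapped each other between lists.

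Seed matches of the miRNAs bound to AGO2 were searched in the 42 element peaks, a measure the choice of the genes did not use. A site with a peak in several lists was counted once in each, so the 42 are not separate sites. Searched were 55 seeds of 68 miRNAs with a mean of at least 1000 CPM (counts in proportion to each library's total) at P7 or P15 and a mature sequence in the RefSeq table (GRCm38.p6). A 7-nt match to bases 2 to 8 was inside 6 of 14 peaks at P7, 6 of 24 at P15 and 0 of 4 in the replicate 2 list. Over all 3' UTR peaks the shares were 26.3%, 23.2% and 13.1%, and over all 3' UTR peaks with the element 18.7%, 18.7% and 9.57%. With a 6-nt match, to bases 2 to 7, 27 of the 42 element peaks held a match instead of 12, with 8 of 14, 17 of 24 and 2 of 4 by list, beside 57.8%, 55.2% and 41.1% of all 3' UTR peaks. Whether most element peaks of the 9 genes held a match therefore depended on its length. Counts this small carry wide counting error, and no test was run. A match is a description and does not show that the miRNA acts there.

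The matches that lay in peaks of both ages belonged to 4 miRNAs with different seeds. They are printed with the seed in capitals, from RefSeq, since each can be read against its target next to the element.
miR-26a-5p: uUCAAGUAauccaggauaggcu
miR-434-3p: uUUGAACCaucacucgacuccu
miR-1983: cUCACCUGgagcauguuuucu
miR-6240: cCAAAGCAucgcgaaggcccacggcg
The match to miR-26a-5p, TACTTGA, was in the Pnrc1 peaks at P7 and P15, 32 nt from the element at 150 nt, and within 20 nt of the shorter peak in the replicate 2 list. The match to miR-434-3p, GGTTCAA, was in the Slc38a2 cluster peaks of both ages with 1 nt between it and the nearest element. The match to miR-1983, CAGGTGA, was in the Slc38a1 peaks over the paired elements at both ages, 22 nt from them. The match to miR-6240, TGCTTTG, directly adjoined the first element of Serinc1 at both ages, where it can be seen upstream of the capitals in the sequence printed above, and it also directly adjoined the element at 2190 nt of Adam22 at P15.

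Apart from miR-6240 these miRNAs each stayed under 1% of miRNA counts. miR-26a-5p took 0.651% and 0.630% of miRNA counts in the P7 libraries and 0.694% and 0.528% in the P15 libraries. miR-434-3p took 0.789% and 0.967% at P7 and 0.665% and 0.759% at P15. miR-1983 took 0.444% and 0.615% at P7 and 0.826% and 0.888% at P15. miR-6240 was uneven between replicates, with counts of 95 (0.727%) and 198 (2.90%) in the P7 libraries, and of 205 in 1 P15 library and 0 in the other. The miRNA libraries totalled 13059 and 6828 counts for P7, and 169054 and 94132 for P15. At the P7 totals the threshold of 1000 CPM stood for few counts. One of the miRNAs searched, miR-409-5p, had 18 and 12 counts in the P7 libraries. Further matches were to miR-9-3p in the wide P7 peak of H1f0, to miR-495-3p in a P15 peak of Slc38a1 and to miR-133b-3p in the second element peak of Sqle at P7. Lnpep, Tmod2 and the other peaks of Adam22 had none inside an element peak.

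Genes around the Pumilio pathway were looked up in the same lists. Over all genes, 573 of the 2627 with a peak in any list (21.8%) had a 3' UTR peak with the element. Of 38 genes for Pumilio proteins, their partners, deadenylases, decapping factors and AGO2 partners, 13 had a peak in any list and 2 had a 3' UTR peak with the element, Pum2 and Ddx6. Pum2, a Pumilio protein itself, had 1, 2 and 1 element peaks in the P7, P15 and replicate 2 lists, and Ddx6, an RNA helicase of decapping, had 2, 2 and 0. Of 8 genes known as Pumilio targets 4 had a peak and 3 an element peak, Cdkn1b with 1 at P7 and 2 at P15, and Scn1a and Gria2 with 1 each at P15. Atxn1, a known target in the cerebellum, had none. Of 24 paralogs of the 9 genes, 8 had a peak and 4 an element peak, all at P15: Adam23 with 3, and Adam11, Slc38a3 and Pnrc2 with 1 each. No paralog had an element peak at P7 or in the replicate 2 list. No list was tested against the share over all genes.

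The 9 genes were not set apart from all others by the number of their element peaks. Summed over the lists they had 4 to 6 each, and 30 genes in all had at least 4. Lnpep had 6, as did Atp2b2, En2, Kcna2 and Zic1. Adam22, Slc38a1, Sqle and Tmod2 had 4, the lowest number among the 9, and Adam23, with 3, was among 59 genes just below. Overlapping element peaks in at least 2 lists were found in 8 of the 9 genes and in 156 others, and in all 3 lists in 4 of the 9 and in 48 others. Those most like the 9, by the number of lists and then of recurring element peaks, included Atp2b2, a calcium pump of the plasma membrane, and Zic1, a transcription factor of granule cells, with 6 such peaks each. Also among them were Adcy1, Adgrl1, Ank3, Arhgef10l, Atp1b1, Atp2a2, Cacng2, Camta1 and Cd47 with 3 each. Zic1 was also on the list of granule cell markers.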

How the data were processed

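The members and gene lists were chosen with earlier results of these data known, so their values are described without a test, and the flank test over all genes, which includes their peaks, is also given without them. The genes named are the 9, their peaks with the element, up to 12 genes most like them, and the members of lists (Pumilio proteins and partners, known targets, paralogs, sterol synthesis, cell type markers); some that the rule names are not reported here.

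Per the submitters' processing notes cutadapt 2.10, STAR 2.5.2a, Bowtie2 2.4.2, UMI-tools, DESeq2 1.36.0, deepTools 3.1.3 and mm10 were used, with no role stated. The deposited peak lists (BED) hold a score that the authors left at 0 throughout. The sources used here name no peak caller, threshold or pooling. Each age's list was taken to pool that age's target libraries, although only the first P15 target library is labelled with the P15 list. The authors deposited the miRNA data as raw counts, 1 row per mature miRNA. Target library depth and input libraries were not analysed here.

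Peaks were placed on GENCODE M21 transcripts of their own strand, protein-coding or not, by any overlap. A 3' UTR went before a coding exon, then the 5' UTR, exons of transcripts that are not protein-coding, and introns. Sequence came from those transcripts for peaks wholly in 1 exon. Elements had to lie whole inside a peak. The flank test is an exact McNemar test with Benjamini-Hochberg adjustment over 3 lists and a threshold of 0.05. It was also run on simulated random sequence. There peaks and flanks had the same base composition, so the simulation does not bear on a difference in composition between them. Intervals are exact binomial at 95% (Python 3.11.15, scipy 1.17.1, numpy 2.4.6). Of 79 miRNAs at 1000 CPM or more, computed from library totals, 68 had a RefSeq sequence. No sequence was found under the names miR-124-3p, miR-133a-3p, miR-185-5p, miR-1a-3p, miR-23b-3p, miR-30b-5p, miR-30d-5p, miR-328-3p, miR-378a-3p, miR-466i-5p and miR-709, so no seed was taken from them. Their sites were searched only where a searched miRNA has the same seed. The seeds of miR-23a-3p, miR-30a-5p, miR-133b-3p and miR-206-3p were among those searched. Alternatives covered the letters, width, placement, flank distance, overlap rule, seed length and leaving the 9 genes out.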

Additional observations from a re-analysis of the deposited data

How the results depend on the processing

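Of 79 alternative values, 76 stayed within 1.5 times the count, within the interval of the share, or on the same side of the threshold in the same direction, and no direction reversed. The remaining 3 follow from the letters or length searched. With TGTAAATA alone in place of TGTANATA the 9 genes had 7 element peaks at P7 instead of 14 and 9 at P15 instead of 24. With a 6-nt seed match, to bases 2 to 7, 27 of the 42 element peaks held a match instead of 12, a site being counted once in each list. A flank comparison with both flanks wholly in the 3' UTR was chosen after seeing the data and gave 16.8%, 25.1% and 22.1% of peaks. No paired analysis was possible because the peak lists hold no values per replicate, and for the same reason no replicate could be left out. Limits are the absence of peak heights, the unknown depth of the target libraries and the small number of peaks, most of all in the replicate 2 list, where the 9 genes have 4 element peaks.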
